A study of Mus musculus and Homo sapiens with 176 samples.

Results

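The imprinted Dlk1-Meg3 domain was examined through the 4 transcripts Meg3, Rian, Mirg and Dlk1, taken as the features that carry these gene symbols among the 24854 features of each RNA table. All 4 are listed once, on chromosome 12 of the mouse build mm9, and 3 of the 4 passed the filter on low values. RNA had been sequenced from nuclei of the cerebellum and the prefrontal cortex of 1 C57BL/6 mouse, mouse 3 of the study, aged 8 to 10 weeks. A sort on NeuN, the product of Rbfox3 that marks most neuronal nuclei, had split them into NeuN+ (aimed at neurons) and NeuN- (aimed at glia and other cells). There are 2 libraries in each of 4 groups, cerebellar NeuN+, cerebellar NeuN-, prefrontal NeuN+ and prefrontal NeuN-, and the labels name no transgene, deletion or treatment in any group. The protocol in the labels describes the cerebellar dissection only. All 8 libraries come from the same animal, so the p-values speak of differences among libraries, possibly technical ones, and say nothing of variation from mouse to mouse. The other 168 samples of the series profile chromatin and were not analysed here.

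The domain is expressed from different alleles by the parent of origin. The paternal chromosome expresses the protein-coding genes Dlk1, which encodes a membrane ligand related to the Notch ligands, Rtl1, a retrotransposon-derived gene, and Dio3, the deiodinase that inactivates thyroid hormone. The maternal chromosome expresses the noncoding RNAs Meg3, a nuclear long RNA that can bind the Polycomb complex PRC2, an RNA antisense to Rtl1, Rian, which hosts C/D small nucleolar RNAs, and Mirg, which hosts microRNAs, and these are often regarded as pieces of a single long transcription unit that starts at the Meg3 promoter. FPKM, the deposited unit, counts fragments per length of transcript and per mapped fragments of the library, so levels can be set against each other between genes, but it does not separate the alleles.

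The sequence at the head of this unit is shown because Meg3, Rian and Mirg all had higher levels in NeuN+ than in NeuN-. In RefSeq on GRCm38.p6, the window from 250 bases before to 50 bases after the Meg3 start lies at chr12:109540746-109541045 on the plus strand and has 13 CpG dinucleotides, against a median of 7 over 32817 promoter windows. RefSeq has a second Meg3 start, whose window at chr12:109545148-109545447 has 1 CpG and 0 of the motifs searched. In the first window, printed here, capitals mark 4 motifs searched on both strands.

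Meg3 promoter: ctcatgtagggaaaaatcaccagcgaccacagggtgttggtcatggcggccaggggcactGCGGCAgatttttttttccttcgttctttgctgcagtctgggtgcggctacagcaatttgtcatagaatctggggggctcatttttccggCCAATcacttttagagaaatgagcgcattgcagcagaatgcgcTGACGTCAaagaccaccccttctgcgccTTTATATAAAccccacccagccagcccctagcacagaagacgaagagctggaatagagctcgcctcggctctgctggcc

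The cyclic AMP response element TGACGTCA starts at position -57 relative to the start and occurs in 1.79% of the promoter windows. The TATA box TATAAA starts at position -25, with a second match on the opposite strand that overlaps it, and occurs in 13.62% of the windows. CCAAT starts at position -100 (37.39% of windows) and TGCCGC, the core of the motif of the imprint-keeping zinc finger protein ZFP57, lies on the opposite strand at position -190 (11.61% of windows). The windows at the RefSeq starts of Rian and Dlk1 hold 0 of these 4 motifs, and that of Mirg holds CCAAT, at position -184. These are matches of letters only.

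The tables also list the small RNAs of the domain as features of their own. From Begain, the gene before Dlk1, to Dio3 there were 78 features, of which 61 are microRNA genes and 7 are small nucleolar RNA genes by the RefSeq gene types. Of these 68 small RNA features, 2 microRNAs lie inside Meg3, 3 microRNAs and all 7 small nucleolar RNAs inside Rian, and 10 microRNAs inside Mirg; none lies inside Dlk1. Of the 22 that overlap a member, 8 reached 1 FPKM in at least 1 library. Among the 8 are 5 microRNA genes, Mir341 in Rian and Mir412, Mir369, Mir410 and Mir3072 in Mirg, and their mature sequences (RefSeq, GRCm38.p6) are given with the seed, bases 2 to 8, in capitals.

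miR-341-5p: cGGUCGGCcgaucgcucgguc
miR-341-3p: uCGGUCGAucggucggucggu
miR-412-5p: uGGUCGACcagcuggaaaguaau
miR-412-3p: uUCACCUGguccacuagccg
miR-369-5p: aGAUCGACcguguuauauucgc
miR-369-3p: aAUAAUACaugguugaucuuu
miR-410-5p: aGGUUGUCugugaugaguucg
miR-410-3p: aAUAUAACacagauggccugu
miR-3072-5p: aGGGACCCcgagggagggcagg
miR-3072-3p: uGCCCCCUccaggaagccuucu
miR-494-5p: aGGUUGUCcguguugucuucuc

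The last sequence, from Mir494 outside the members, shares its seed with miR-410-5p. All 61 microRNA features matched a mature sequence, with 113 mature names and 104 different seeds; 9 seeds were shared, each by a pair of mature microRNAs, so most arms of the cluster have a seed of their own. These libraries measure RNA fragments over the precursor genes, and mature microRNAs of this length were not measured.

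**Figure D1:**
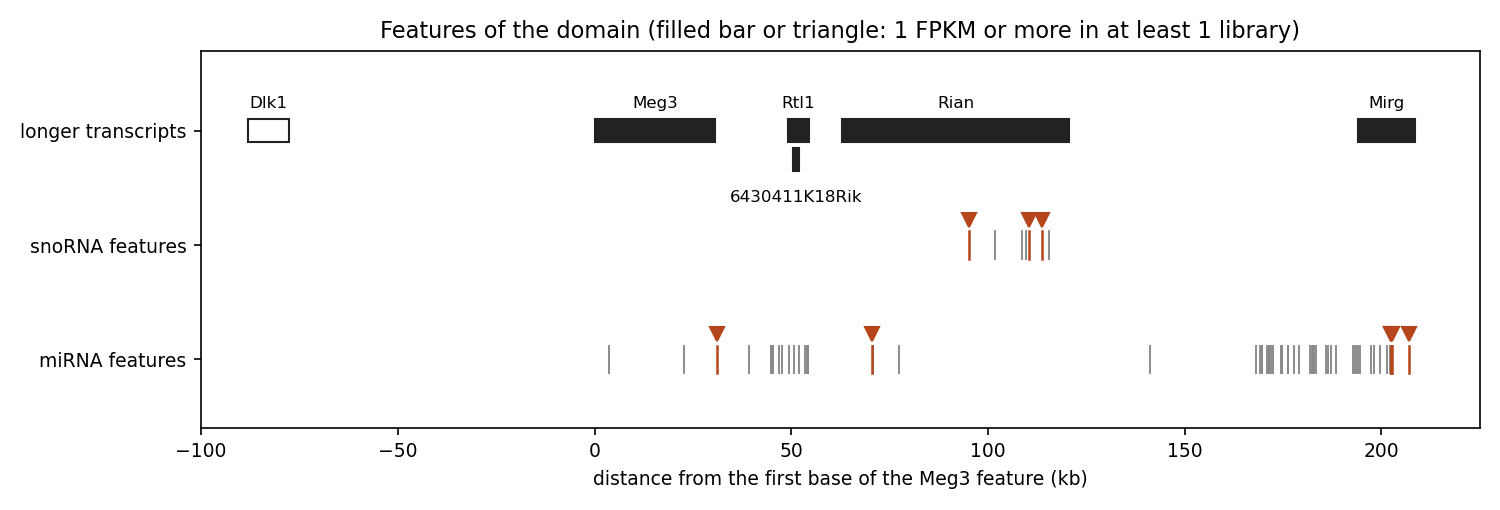
Position of the features from Dlk1 to Mirg, as the distance from the first base of the Meg3 feature in kb. Longer transcripts are bars and small RNA features are ticks. Begain, 3110009F21Rik, Dio3, Dio3os and Mir1247 lie outside the range shown. Filled bars and triangles mark features that reached 1 FPKM in any of the 8 libraries, which include Meg3, Rtl1, 6430411K18Rik, Rian and Mirg but not Dlk1.

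Meg3 (mm9 chromosome 12, 110779206 to 110809939) was among the most abundant RNAs of both NeuN+ groups. It stood at 449 and 459 FPKM in cerebellar NeuN+, 182 and 193 in cerebellar NeuN-, 480 and 477 in prefrontal NeuN+, and 11.98 and 11.64 in prefrontal NeuN-. The 4 groups did not overlap, and the prefrontal NeuN- libraries were far below the other 6. Ranked by FPKM among 24854 features, it was 54th and 51st in cerebellar NeuN+, 220th and 199th in cerebellar NeuN-, 43rd and 39th in prefrontal NeuN+, and 5045th and 5144th in prefrontal NeuN-. The Cufflinks confidence limits deposited with the values imply between 559 and 4656 fragments per library behind them.

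Rian (110842155 to 110899921) was low throughout, with its highest values in prefrontal NeuN+. It stood at 1.51 and 1.64 FPKM in cerebellar NeuN+, 0.687 and 0.703 in cerebellar NeuN-, 3.91 and 3.19 in prefrontal NeuN+, and 0.648 and 0.680 in prefrontal NeuN-. Both NeuN+ groups were above both NeuN- groups, prefrontal NeuN+ stood apart from cerebellar NeuN+, and the values of the NeuN- groups lay close together. Rian passed the filter, 1 FPKM or more in 2 or more libraries, only through the 4 NeuN+ libraries. The limits imply between 34.7 and 173 fragments per library.

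Mirg (110973191 to 110987667) had its lowest level in prefrontal NeuN-, as Meg3 did. It stood at 4.87 and 3.77 FPKM in cerebellar NeuN+, 1.06 and 1.33 in cerebellar NeuN-, 3.90 and 3.53 in prefrontal NeuN+, and 0.133 and 0.0486 in prefrontal NeuN-. The NeuN+ groups overlapped each other, cerebellar NeuN- was lower, and prefrontal NeuN- was near 0. The limits imply 2.16 and 0.489 fragments in the prefrontal NeuN- libraries, so those 2 values are imprecise, against 16.6 to 84.4 in the other 6. Mirg passed the filter through 6 libraries.

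Dlk1 (110691033 to 110701546) was listed at 0 FPKM in all 8 libraries and did not pass the filter. Its quantification status was OK in each, as for all values of the members. In these tables an exact 0 can also be a failed estimate, so it is given as listed at 0 only.

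**Figure D2:**
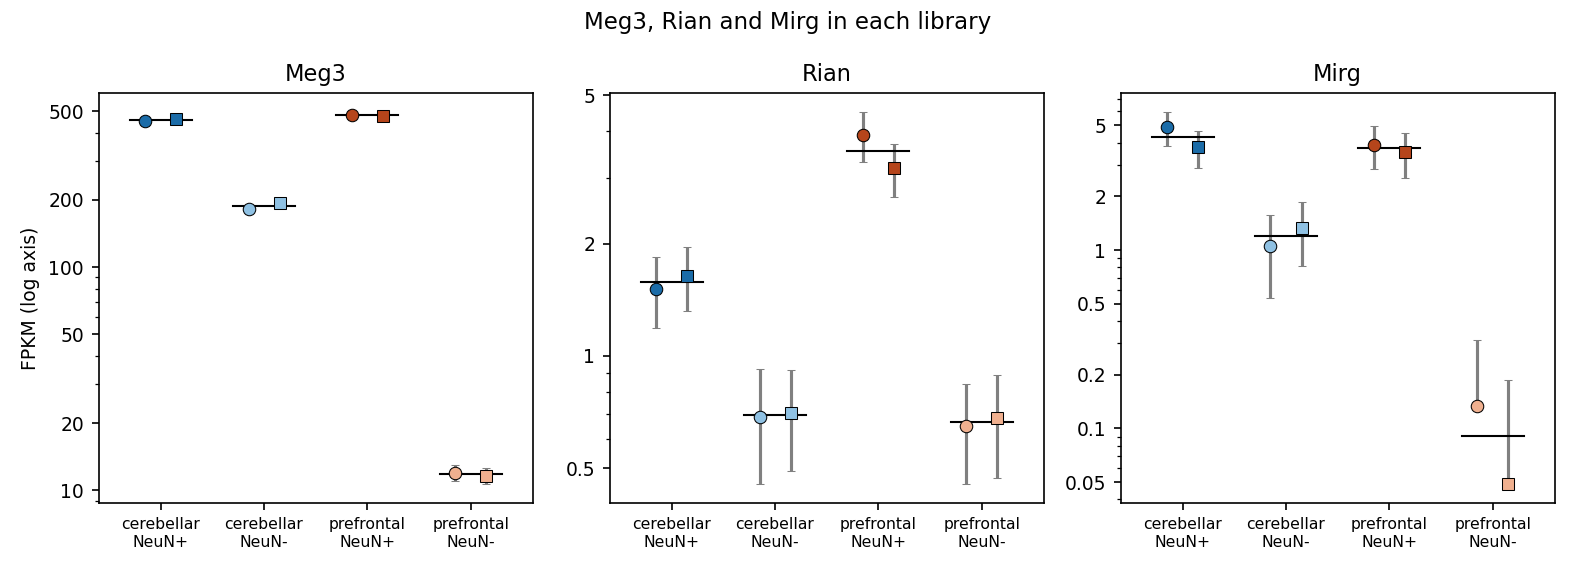
FPKM of Meg3, Rian and Mirg on log axes in each library of the 4 groups (circles replicate 1, squares replicate 2), with the group mean as a line and Cufflinks' confidence limits as bars, whose lower arm is left out where the limit is 0. Meg3 and Mirg are lowest in prefrontal NeuN-, while Rian has like values in both NeuN- groups; Dlk1, listed at 0 throughout, is not drawn.

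In prefrontal cortex, the comparison of NeuN+ with NeuN- asked how the domain differs between neuronal and other nuclei. All 3 members tested were higher in NeuN+, where 35.0% of the 14376 features tested were called higher and 72.6% were called in either direction. Of the called features, 48.2% were higher with the library scaling used, 36.0% without scaling and 59.9% after setting all libraries to a common sum, and the members were higher under each. Since all 3 passed the filter through groups that include NeuN+, their shared direction is a description of these transcripts. Rian passed only through NeuN+ libraries, so its tests of NeuN+ against NeuN- in both regions are not independent of the filter. Changes are on the log2 scale of scaled FPKM + 1, which understates those of low genes.

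Meg3 rose by 5.45 in prefrontal NeuN+ (SE 0.0417, limma adjusted p = 1.5e-08), which was the 15th largest positive change of the 14376 features. Mirg rose by 2.18 (SE 0.124, adjusted p = 9.4e-06 with limma) and Rian by 1.56 (SE 0.0904, adjusted p = 1.0e-05 with limma). Without a pseudocount, the mean of Rian in prefrontal NeuN+ was 6.30 times that in prefrontal NeuN-, and those of Meg3 and Mirg were 47.8 and 48.5 times. The Mirg ratio rests on the near-empty prefrontal NeuN- values given above. The implied fragments of Meg3 differed less than its FPKM, at 4427 and 4656 in prefrontal NeuN+ against 566 and 559 in prefrontal NeuN-. Those of Rian were 173 and 150 against 44.3 and 42.4. What lies behind this was not tested, so the size of each Meg3 change that involves prefrontal NeuN- is uncertain. With a pseudocount of 0.1 the log2 change was 4.50 for Mirg and 2.46 for Rian. In bulk libraries, fewer cells of a type and less RNA per cell cannot be told apart.

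In cerebellum the same comparison gave smaller changes. All 3 members tested were again higher in NeuN+, where 32.4% of the features were called higher and 71.7% in either direction. Mirg rose by 1.29 (SE 0.124, limma adjusted p = 1.0e-04), Meg3 by 1.27 (SE 0.0417, limma adjusted p = 1.1e-06) and Rian by 0.62 (SE 0.0904, limma adjusted p = 8.3e-04). Meg3 averaged 472 ± 4.61 scaled FPKM in cerebellar NeuN+ and 195 ± 6.67 in cerebellar NeuN- (SD, n = 2), and its change was the 764th largest positive change. The change of Rian was 1.08 with a pseudocount of 0.1 and 1.01 with quantile normalization.

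The NeuN change was smaller in cerebellum than in prefrontal cortex for each of the 3, where 70.1% of features had a called difference and 37.0% a lower one. The difference, cerebellar minus prefrontal change, was -4.18 for Meg3 (SE 0.0589, limma adjusted p = 2.8e-07), -0.95 for Rian (SE 0.128, limma adjusted p = 6.6e-04) and -0.89 for Mirg (SE 0.175, limma adjusted p = 0.0038, and -2.72 with a pseudocount of 0.1). The 3 members reached this difference through different groups, as the comparisons between the regions showed.

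Between NeuN+ nuclei of the regions, where 77.2% of features were called, Rian fell by 0.83 in cerebellum relative to prefrontal cortex (SE 0.0904, limma adjusted p = 1.6e-04). Meg3 and Mirg did not pass. The difference of Meg3 was -0.09, with a 95% interval of -0.19 to 0.01 (limma adjusted p = 0.10), and that of Mirg was 0.16, with an interval of -0.14 to 0.46 (limma adjusted p = 0.27). With quantile normalization Meg3 was called lower in cerebellar NeuN+ (-0.27, limma adjusted p = 0.0039).

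Between NeuN- nuclei of the regions, where 79.5% of features were called, the reverse was seen. Meg3 rose by 4.09 in cerebellum (SE 0.0417, limma adjusted p = 6.8e-08), the 37th largest positive change, and Mirg by 1.05 (SE 0.124, limma adjusted p = 2.3e-04, and 2.91 with a pseudocount of 0.1). Rian did not pass: its difference was 0.12, with a 95% interval of -0.10 to 0.33 (limma adjusted p = 0.28), although after setting all libraries to a common sum it was called higher in cerebellar NeuN- (0.23, limma adjusted p = 0.048). Thus Meg3 and Mirg passed the test between the regions in NeuN-, and Rian in NeuN+.

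**Figure D3:**
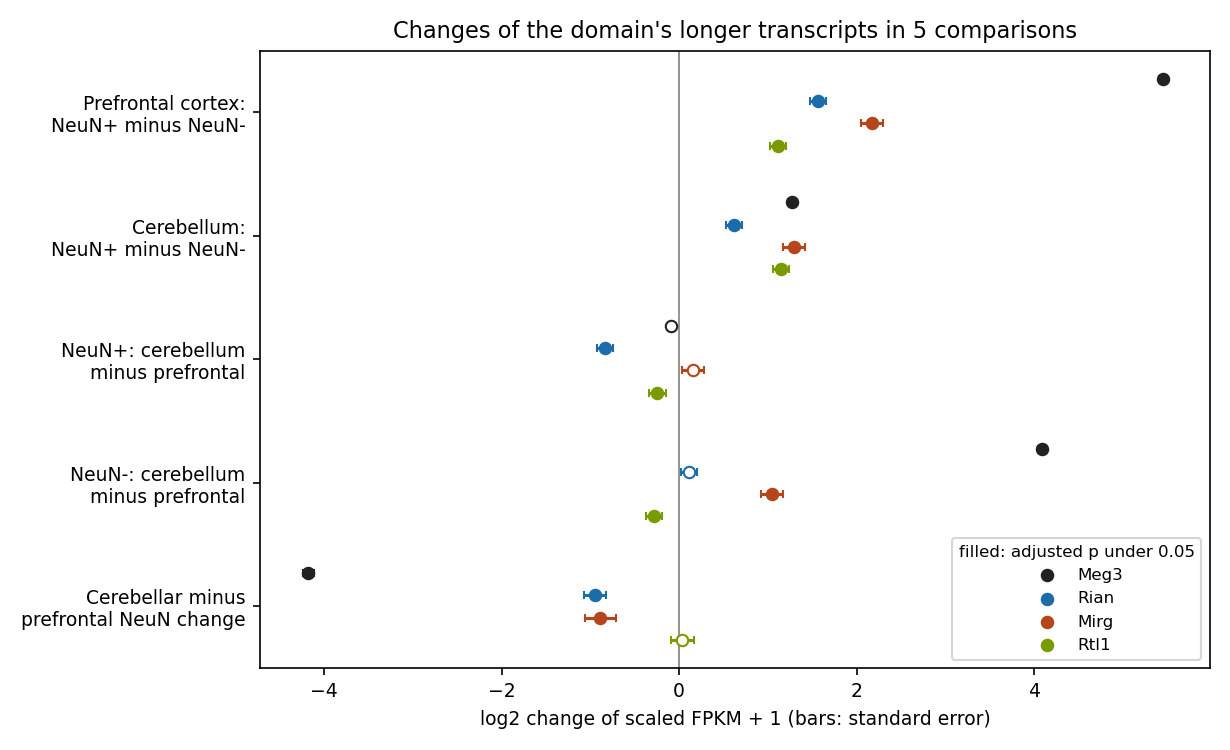
The log2 change of scaled FPKM + 1, with its standard error, of Meg3, Rian, Mirg and Rtl1 in the 5 comparisons; filled points have a limma adjusted p under 0.05. The NeuN+ against NeuN- changes of all 4 are positive in both regions, and the difference between the regions is -4.18 for Meg3 and 0.04 for Rtl1.

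Ratios within a library do not depend on library scaling. Those to Meg3 do depend on its FPKM, which its implied fragments did not follow in proportion. Rian stood at 0.337% and 0.358% of the Meg3 FPKM in cerebellar NeuN+, 0.377% and 0.365% in cerebellar NeuN-, 0.814% and 0.669% in prefrontal NeuN+, and 5.41% and 5.84% in prefrontal NeuN-. The 4 cerebellar libraries lay within a narrow range, and the prefrontal NeuN- libraries were far above all others. Mirg stood between 0.418% and 1.11% of Meg3 over all 8 libraries, and these bounds are the 2 prefrontal NeuN- libraries.

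Mirg relative to Rian stood at 322% and 230% in cerebellar NeuN+, 154% and 189% in cerebellar NeuN-, 99.7% and 111% in prefrontal NeuN+, and 20.5% and 7.16% in prefrontal NeuN-. The groups did not overlap, and Mirg exceeded Rian in each cerebellar library. With 2 libraries against 2, an exact permutation test cannot give a p under 0.333, so these ratios were not tested.

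**Figure D4:**
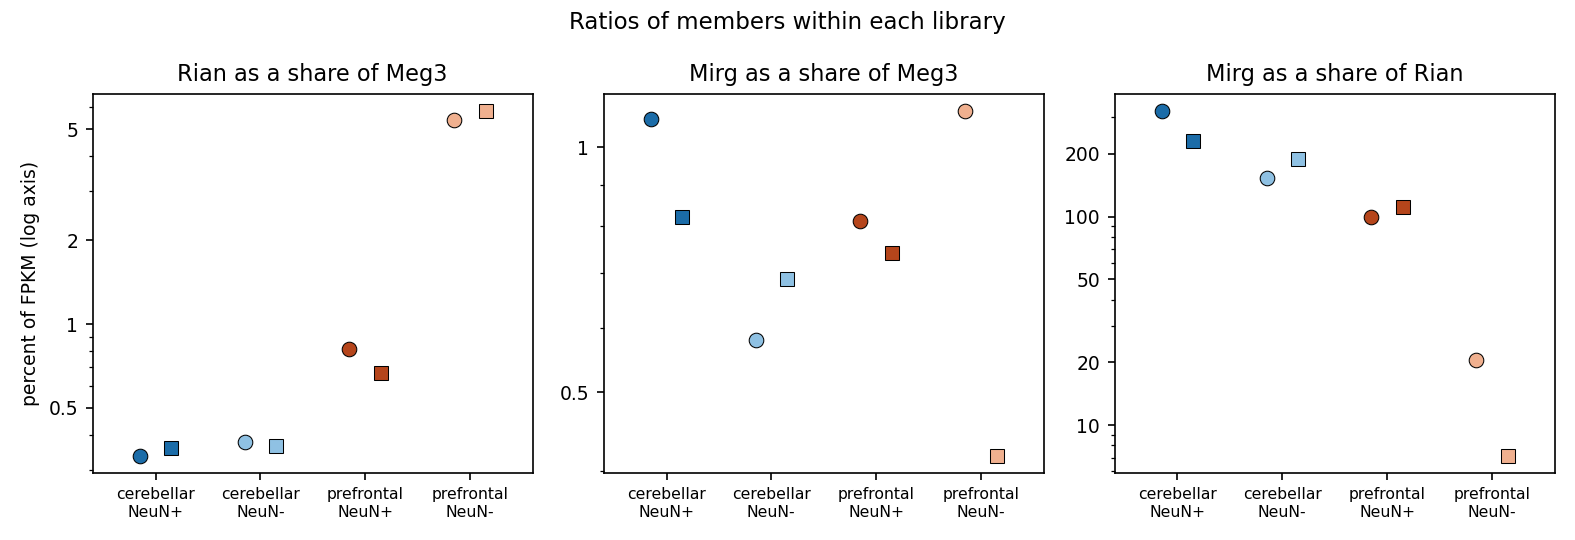
Rian as a percent of Meg3, Mirg as a percent of Meg3 and Mirg as a percent of Rian, from the FPKM of each library (log axes; circles replicate 1, squares replicate 2). Rian makes up 0.337% to 0.377% of Meg3 in the 4 cerebellar libraries and 5.41% and 5.84% in prefrontal NeuN-.

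The small RNA features gave little signal. In Rian, AF357425 was listed at 0 and 385 FPKM in cerebellar NeuN+, 235 and 321 in cerebellar NeuN-, 179 and 262 in prefrontal NeuN+, and 0 and 0 in prefrontal NeuN-. Its limits imply 1.99 to 6.00 fragments where it is above 0, over a feature of 69 bases, and the values are imprecise. It was called higher in prefrontal NeuN+ (limma adjusted p = 0.024), and this call was lost when any library of either prefrontal group was left out.

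AF357355, also a small nucleolar RNA gene, was above 0 in 6 libraries and DQ267101 in 3, and neither was called in any of the 5 comparisons. In Mirg, Mir3072 was listed at 38.7 and 34.4 FPKM in cerebellar NeuN+, 0 and 103 in cerebellar NeuN-, and 0 in all 4 prefrontal libraries. Where above 0, it had 1.00 to 3.00 implied fragments. Mir3072 passed the filter only through cerebellar libraries, so its comparisons between the regions are not independent of the filter. Its call between the NeuN+ groups (limma adjusted p = 0.038) was lost when any library of either NeuN+ group or of prefrontal NeuN- was left out, and without the filter. Mir410 was above 1 FPKM in 2 libraries, Mir341, Mir412 and Mir369 in 1 library each, and 0 of the 68 small RNA features of the domain were above 0 in all 8 libraries.

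Of the domain's other longer transcripts, Rtl1 (110828379 to 110833613) was higher in NeuN+ of both regions. It stood at 1.42 and 1.12 FPKM in cerebellar NeuN+, 0.0512 and 0.0315 in cerebellar NeuN-, 1.54 and 1.80 in prefrontal NeuN+, and 0.251 and 0.350 in prefrontal NeuN-. The NeuN+ libraries were all above the NeuN- libraries, and Rtl1 passed the filter only through them, so its tests of NeuN+ against NeuN- are not independent of the filter. Rtl1 rose by 1.15 in cerebellar NeuN+ (SE 0.092, limma adjusted p = 4.3e-05) and by 1.11 in prefrontal NeuN+ (SE 0.092, limma adjusted p = 5.3e-05), and the difference between the regions was 0.04, with a 95% interval of -0.28 to 0.35 (limma adjusted p = 0.82). With a pseudocount of 0.1 that difference was 0.97 and was called.

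The noncoding 6430411K18Rik (110829747 to 110831061), which RefSeq also names PEG11as, lies within Rtl1. It stood at 3.20 and 4.89 FPKM in cerebellar NeuN+, 4.51 and 4.55 in cerebellar NeuN-, 12.98 and 12.57 in prefrontal NeuN+, and was listed at 0 in both prefrontal NeuN- libraries. Thus the cerebellar groups overlapped. The transcript was called higher in prefrontal NeuN+ (limma adjusted p = 1.8e-06) and in cerebellar NeuN- over prefrontal NeuN- (limma adjusted p = 7.8e-06). Both calls rest on the prefrontal NeuN- values listed at 0, which can be failed estimates, so they are uncertain. The sources used here do not say whether strand was used in counting, so reads of Rtl1 and of the RNA within it cannot be told apart for certain, and the values of both are uncertain.

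Dio3os, a noncoding RNA beside Dio3, ran the other way. It was listed at 0 in all 4 NeuN+ libraries, at 3.53 and 3.92 FPKM in cerebellar NeuN- and at 0.857 and 0.446 in prefrontal NeuN-. It passed the filter only through the 2 cerebellar NeuN- libraries, and its values of 0 can be failed estimates, so these levels are a description and no p is given. Begain, Dio3 and the noncoding 3110009F21Rik stayed under 1 FPKM in every library and were not tested.

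**Figure D5:**
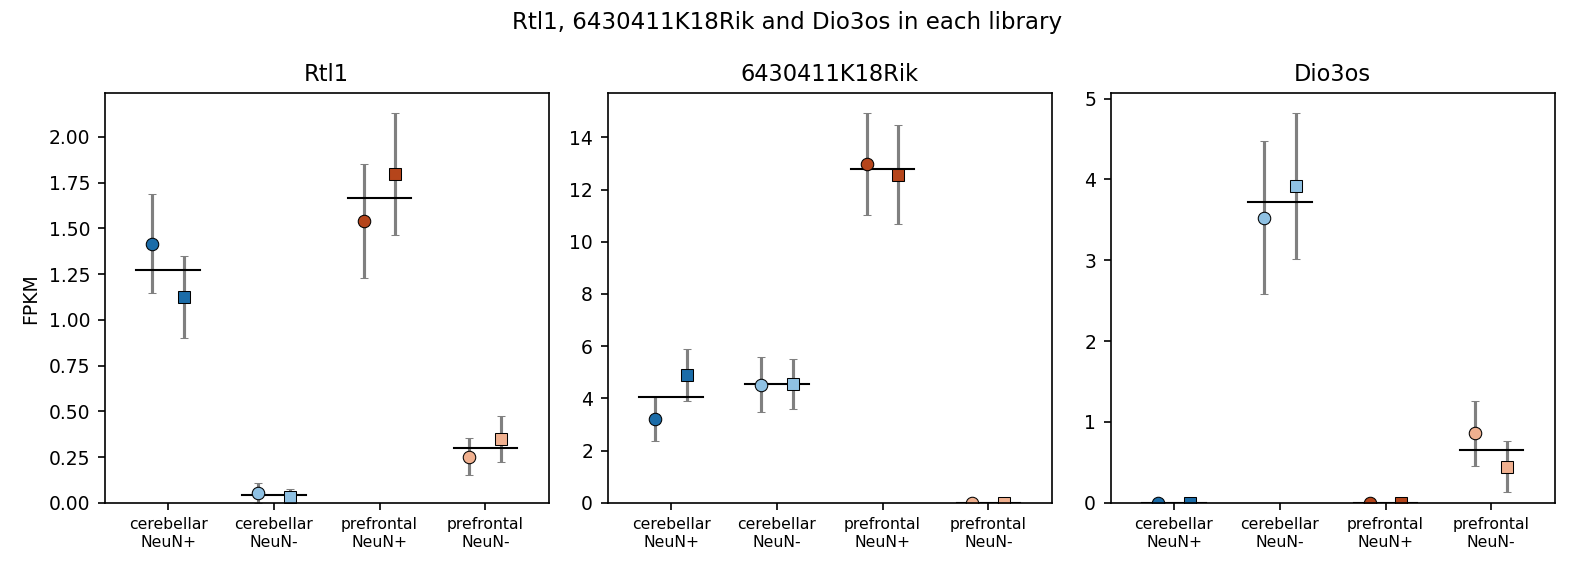
FPKM of Rtl1, 6430411K18Rik and Dio3os in each library of the 4 groups (circles replicate 1, squares replicate 2), with the group mean as a line and Cufflinks' confidence limits as bars. Rtl1 is higher in NeuN+ of both regions, 6430411K18Rik reaches 12.98 in prefrontal NeuN+ and is listed at 0 in prefrontal NeuN-, and Dio3os is above 0 only in the NeuN- libraries.

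Markers of the cell types in the gates were read beside these values. Their counts here and in the next paragraph stand against shares over all features tested. These shares were 35.0% higher and 37.6% lower in prefrontal NeuN+, and 32.4% higher and 39.2% lower in cerebellar NeuN+. The summed scaled FPKM of 12 general neuronal genes ran from 1650 to 1656 in cerebellar NeuN+, 898 to 905 in cerebellar NeuN-, 1877 to 1903 in prefrontal NeuN+ and 2344 to 2478 in prefrontal NeuN-, with 0 of the 12 listed at 0 in any group. Of the 12, 4 were higher and 6 lower in prefrontal NeuN+, while 11 were higher and 1 lower in cerebellar NeuN+. More specific lists differed from this one in prefrontal cortex: of 8 cortical projection neuron genes tested, 7 were higher and 0 lower in prefrontal NeuN+, with sums over the list of 52.9 to 55.3 in prefrontal NeuN+ and 20.9 to 22.2 in prefrontal NeuN-. Of 8 interneuron genes tested, 5 were higher and 1 lower in prefrontal NeuN+, although their sum ran from 931 to 1011 in prefrontal NeuN+ and 1256 to 1352 in prefrontal NeuN-. Rbfox3, the gene of the sorting antigen, averaged 126 scaled FPKM in cerebellar NeuN+, 35.2 in cerebellar NeuN-, 16.7 in prefrontal NeuN+ and 11.8 in prefrontal NeuN-.

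Of 10 granule cell genes, all 10 were higher in cerebellar NeuN+ than in cerebellar NeuN-, and their sum ran from 951 to 953 in cerebellar NeuN+, 299 to 303 in cerebellar NeuN-, 26.9 to 27.3 in prefrontal NeuN+ and 41.1 to 44.5 in prefrontal NeuN-. Gabra6, Fat2 and Zic2 of this list were at 0 in prefrontal NeuN+. Of 9 Purkinje cell genes, 5 were higher and 0 lower in cerebellar NeuN+. Their sum ran from 1401 to 1459 in cerebellar NeuN+, 1246 to 1304 in cerebellar NeuN-, 480 to 482 in prefrontal NeuN+ and 610 to 687 in prefrontal NeuN-. Of the 8 interneuron genes tested, 0 were higher and 3 lower in cerebellar NeuN+. The interneuron sum ran from 307 to 308 in cerebellar NeuN+ and 470 to 481 in cerebellar NeuN-. Of the 8 cortical projection neuron genes, 7 were lower in cerebellar NeuN+ than in prefrontal NeuN+, a direction called for 40.7% of all features tested. In cerebellum, glial genes had the opposite pattern to granule cell genes. All 10 oligodendrocyte genes and all 10 astrocyte genes were lower in NeuN+ of both regions; the oligodendrocyte sum ran from 224 to 232 in cerebellar NeuN+, 1680 to 1707 in cerebellar NeuN-, 98.9 to 107 in prefrontal NeuN+ and 2165 to 2173 in prefrontal NeuN-. The sum of 9 microglial genes ran from 22.0 to 26.4 in cerebellar NeuN+, 70.2 to 70.3 in cerebellar NeuN-, 46.4 to 52.0 in prefrontal NeuN+ and 700 to 716 in prefrontal NeuN-. The part of these cell types in the levels of the members was not tested.

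By the profile over the 8 libraries, the feature most like Meg3 outside the domain was Snhg11, a noncoding small nucleolar RNA host gene, with a root mean square difference of 0.39 on the centred log2 scale (Pearson r = 0.986 over the 8 libraries, 12798 features compared). It was followed by the microtubule adaptor gene Hook1 (0.62), Ipw, an imprinted noncoding RNA of the Prader-Willi region (0.70), the NMDA receptor gene Grin1 (0.77) and the heparan sulfate enzyme gene Ndst3 (0.92). All 5 had their lowest level in prefrontal NeuN-, which their choice by likeness to Meg3 favours. Ranked by Pearson r instead, 0 of these 5 stayed among the 5 most alike, so the naming depends on the measure.

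The profile of Rian was closest to those of the collagen gene Col5a1 (0.07), the zinc finger gene Zfp940 (0.09), the kinase gene Mapk8 (0.09), the chromatin organiser gene Satb1 (0.10) and the transcription factor gene Rfx3 (0.12), and 2 of the 5 stayed by Pearson r. Among the profiles closest to that of Mirg were those of the oxidase gene Nox1 (0.13), the syntaxin gene Stx3 (0.15), the sodium leak channel component Unc80 (0.15) and B4galnt4 (0.18), and of the 5 closest to Mirg, 1 stayed by Pearson r. The members were not each other's nearest by this measure: Mirg ranked 44th in likeness to Meg3 and Rian 819th. The scale understates changes of low genes such as these. Pearson r with Meg3 was 0.946 for Mirg and 0.711 for Rian, against 0.936 for Ndst3. Within the domain, 6430411K18Rik ranked 7th in likeness to Meg3 and Rtl1 1326th. The 8 libraries share 4 group levels, so these correlations are descriptions.

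Imprinted genes outside the domain were counted for comparison. Changes given for single genes from here on are on the log2 scale of scaled FPKM + 1, and each was called, with limma adjusted p-values of at most 0.041. The counts of these lists stand against shares over all features tested of 35.0% higher and 72.6% called in prefrontal NeuN+, and 32.4% higher and 71.7% called in cerebellar NeuN+. Of 6 tested genes listed as maternally expressed, 4 were higher and 1 lower in prefrontal NeuN+ (median log2 change 0.54, against -0.01 over all features), and 3 were higher and 0 lower in cerebellar NeuN+ (0.28, against -0.04). The list includes Grb10, so it is not purely maternal in neurons. Grb10, a growth inhibitor gene that neurons express from the paternal copy, averaged 8.74 ± 0.218 scaled FPKM in prefrontal NeuN+ and 0.876 ± 0.188 in prefrontal NeuN- (SD, n = 2). Ube3a, the ubiquitin ligase gene of Angelman syndrome, averaged 32.5 ± 0.351 in prefrontal NeuN+ and 8.77 ± 0.0636 in prefrontal NeuN- (SD, n = 2).

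The paternally expressed genes were more mixed in prefrontal cortex. Of 19 tested, 7 were higher and 8 lower in prefrontal NeuN+ (median 0.05), a split that became 6 and 11 without scaling and 10 and 7 with a common sum, and 11 were higher and 6 lower in cerebellar NeuN+ (median 0.46). Ipw averaged 389 ± 6.87 scaled FPKM in cerebellar NeuN+, 94.1 ± 6.75 in cerebellar NeuN-, 366 ± 42.6 in prefrontal NeuN+ and 19.9 ± 2.85 in prefrontal NeuN- (SD, n = 2). Mest, an imprinted hydrolase gene, was higher in NeuN+ of both regions (1.99 in cerebellum and 1.76 in prefrontal cortex), while Airn, the noncoding RNA that silences Igf2r on the paternal chromosome, was 2.33 higher in cerebellar NeuN+ and lower in prefrontal NeuN+ (-0.80).

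The genes that flank the domain were mixed. Of 10 tested, 2 were higher and 2 lower in prefrontal NeuN+ (1 and 4 without scaling; median -0.05), and 4 were higher and 6 lower in cerebellar NeuN+ (4 and 4 with quantile normalization; median -0.32). Mok, a kinase gene, was 1.22 higher in prefrontal NeuN+ and lower in cerebellar NeuN+ (-0.33), and Slc25a29, a mitochondrial carrier gene, was lower in prefrontal NeuN+ (-0.72) and 0.83 higher in cerebellar NeuN+. The tryptophanyl-tRNA synthetase gene Wars was lower in cerebellar NeuN+ (-0.83).

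Factors that keep imprints were split: of 14 tested, 6 were higher and 4 lower in prefrontal NeuN+ (4 and 7 without scaling), and 8 were higher and 4 lower in cerebellar NeuN+. Zfp445, a zinc finger gene that keeps imprints together with Zfp57, was 1.01 higher in prefrontal NeuN+ and 0.28 higher in cerebellar NeuN+, and Tet1, a DNA demethylase gene, was 1.03 higher in cerebellar NeuN+. Aff3, whose protein binds the control region of this domain, was 0.88 higher in prefrontal NeuN+ and lower in cerebellar NeuN+ (-0.63). Of 10 PRC2 subunits and partners, 5 were higher and 2 lower in prefrontal NeuN+ (2 and 4 without scaling), and 4 were higher and 2 lower in cerebellar NeuN+. Ezh1, a catalytic subunit, averaged 14.5 ± 0.344 scaled FPKM in cerebellar NeuN+ and 6.23 ± 0.589 in cerebellar NeuN- (SD, n = 2), and Jarid2, a recruiting partner, was 1.09 higher in prefrontal NeuN+ and 0.70 higher in cerebellar NeuN+.

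Of 14 genes of the microRNA pathway, 10 were higher and 2 lower in NeuN+ of each region, with medians of 0.52 in prefrontal cortex (-0.01 over all features) and 0.31 in cerebellum (-0.04 over all features). Drosha, the nuclear enzyme that cuts microRNA precursors, averaged 21.9 ± 0.592 scaled FPKM in prefrontal NeuN+ and 8.39 ± 0.116 in prefrontal NeuN- (SD, n = 2), and was 1.28 higher in cerebellar NeuN+. Xpo5, the exporter of precursors, was 1.72 higher in prefrontal NeuN+, and Prkra, a partner of Dicer, averaged 5.75 ± 1.60 scaled FPKM in prefrontal NeuN+ and 17.9 ± 2.33 in prefrontal NeuN- (SD, n = 2). Of the 4 proteins of C/D small nucleolar particles, 1 was higher and 1 lower in prefrontal NeuN+ (1 and 3 without scaling) and 3 were higher and 1 lower in cerebellar NeuN+; the methyltransferase gene Fbl was lower in cerebellar NeuN+ (-0.85). Of 2 tested MEF2 factors, which activate the microRNA cluster of Mirg, Mef2c was 0.72 higher in prefrontal NeuN+ and lower in cerebellar NeuN+ (-1.03), and Mef2a was lower in prefrontal NeuN+ (-0.49) and 0.99 higher in cerebellar NeuN+.

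Genes that act with the products of Dlk1 and Dio3 were mixed. Of 25 Notch pathway genes tested, 5 were higher and 11 lower in prefrontal NeuN+ (median -0.14), and 6 were higher and 12 lower in cerebellar NeuN+ (7 and 6 with quantile normalization; median -0.15). Dlk2, the relative of Dlk1, averaged 25.1 ± 0.494 scaled FPKM in prefrontal NeuN+ and 2.56 ± 0.505 in prefrontal NeuN- (SD, n = 2) and was listed at 0 in all 4 cerebellar libraries. Mfng, which modifies Notch receptors, was listed at 0 in all 4 NeuN+ libraries, and these can be failed estimates. It passed the filter only through NeuN- libraries, so its lower calls in NeuN+ of both regions are not independent of the filter. Of 8 thyroid hormone genes, 2 were higher and 3 lower in prefrontal NeuN+, and 1 was higher and 3 lower in cerebellar NeuN+ (3 and 3 with quantile normalization). The hormone transporter gene Slco1c1 averaged 1.59 ± 0.00495 scaled FPKM in prefrontal NeuN+ and 51.5 ± 2.23 in prefrontal NeuN- (SD, n = 2), and the receptor gene Thrb was 0.86 higher in prefrontal NeuN+ and lower in cerebellar NeuN+ (-1.18).

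Other nuclear long noncoding RNAs were mixed. Of 10 tested, 6 were higher and 3 lower in prefrontal NeuN+ (median 0.98, against -0.01 over all features). In cerebellar NeuN+, 2 were higher and 4 lower (median -0.01, against -0.04). Neat1, the RNA of paraspeckles, averaged 10.8 ± 0.372 scaled FPKM in cerebellar NeuN+, 318 ± 2.54 in cerebellar NeuN-, 0.988 ± 0.262 in prefrontal NeuN+ and 109 ± 1.5 in prefrontal NeuN- (SD, n = 2). Sox2ot was lower in prefrontal NeuN+ (-3.41) and in cerebellar NeuN+ (-2.55). The higher count includes Malat1, which carries a quantification warning where it is listed at 0; without features of such status, 5 of 9 were higher in prefrontal NeuN+.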

How the data were processed

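RNA was measured in 8 libraries of sorted nuclei of 1 mouse, 2 in each of 4 groups taken from the sample titles; what separates replicates is not stated there. The authors deposited gene-level FPKM from Cufflinks with confidence limits and a status, per the file headers. Without giving roles, the submitters' processing notes list mm9, Cufflinks, Bowtie 1.1.1, TopHat2 2.1.1, Bismark and Trim Galore 0.3.7. Neither the annotation nor any use of strand is stated in those sources. FPKM are not counts, so no count test was run; depth is unknown, and the fragments behind a value were read from its limits as the square of 2 times the value over its distance to the upper limit. FPKM summed to 289350 to 426851 per library, 11256 to 12494 features reached 1 FPKM, and Spearman correlations within groups were 0.972 to 0.977, with 0 values above 0 that were identical in both.

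FPKM were multiplied by median-of-ratios factors over 9109 features (0.878 to 1.05). The 14376 features that reached 1 FPKM in 2 or more libraries were fitted as log2(scaled FPKM + 1) with limma 3.58.1 in R 4.3.3. The model had a mean for each group, a variance trend and 4 residual degrees of freedom. Tests were two-sided, p-values were adjusted over all features (Benjamini-Hochberg), and a feature was called below 0.05. The fit was tested on simulated data.

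The members and gene lists were chosen with earlier results of these data known, so list counts are descriptions. Of each list, up to 4 members were named: the 2 with the largest change in each NeuN comparison, with at least 1 FPKM in a group. Likeness used features of status OK outside the domain, without predicted, clone or small RNA symbols. Of the features most like Mirg, 1 is not reported here. Symbols on more than 1 feature (285) were read at the feature with the highest mean; domain features were read by position. Replicate numbers did not pair libraries across groups, with correlations of deviations from -0.045 to 0.034.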

Additional observations from a re-analysis of the deposited data

Results flagged for a closer look

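The NeuN+ against NeuN- change differed between the regions, by a test of the difference itself, for these results; differences are cerebellar minus prefrontal changes on the log2 scale of scaled FPKM + 1. Among the members they were -4.18 for Meg3, -0.95 for Rian and -0.89 for Mirg. The size of the Meg3 difference is uncertain, because its implied fragments differed less than its FPKM. In the rest of the domain the difference was -4.00 for 6430411K18Rik. It rests on prefrontal NeuN- values listed at 0, which can be failed estimates. Reads of 6430411K18Rik and Rtl1 also cannot be told apart for certain, so this difference is uncertain. Dio3os had -1.63, but it passed the filter only through cerebellar NeuN-. Its NeuN+ values, listed at 0 in both regions, can be failed estimates, so its difference is a description and not a test result. AF357425 had -11.67, on few fragments, and this call was lost when cerebellar NeuN- replicate 2, prefrontal NeuN+ replicate 2 or either prefrontal NeuN- library was left out. Since 70.1% of all features had such a call, a call alone sets no gene apart.

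Among the flanking genes the difference was -1.54 for Mok, 1.56 for Slc25a29 and -0.64 for Wars. Imprinted genes elsewhere had -1.98 (Grb10), -0.47 (Ube3a), 0.41 (Igf2r), -2.10 (Ipw) and 3.13 (Airn). Ipw, Grb10 and Ube3a had the negative sign of the members, and 37.0% of all features tested had a called difference of that sign.

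Imprint factors had -0.73 (Zfp445), -1.51 (Aff3), 1.02 (Tet1) and 0.37 (Setdb1), and PRC2 genes -1.15 (Mtf2), -0.39 (Jarid2), 1.08 (Ezh1) and -0.76 (Phf19). MicroRNA and small nucleolar particle genes had -1.81 (Xpo5), 1.54 (Prkra), -0.55 (Ago3) and 1.00 (Nhp2l1). Both signs occurred within each of these groups.

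The MEF2 genes went opposite ways, with -1.76 for Mef2c and 1.47 for Mef2a. Notch pathway genes had -2.88 (Dlk2) and -1.06 (Jag1), and thyroid hormone genes 2.61 (Slco1c1), 1.24 (Dio2) and -2.04 (Thrb). Dlk2 was listed at 0 in every cerebellar library and Slco1c1 in both cerebellar NeuN+ libraries. These values can be failed estimates, so both differences are uncertain. Dlk2 also passed the filter only through prefrontal libraries. Nuclear RNAs had 1.04 (Neat1) and 0.86 (Sox2ot).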

How the results depend on the processing

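For the members, 15 results were recomputed under each alternative. Of 257 recomputed values, 255 kept their side of the threshold, 2 became calls, and 0 lost a call. No called value changed sign; among those not called, Meg3 between the NeuN+ groups changed from negative to 0.000973 after setting all libraries to a common sum. The 2 were Meg3 between the NeuN+ groups with quantile normalization (-0.27) and Rian between the NeuN- groups after setting all libraries to a common sum (0.23). Over all alternatives run, the prefrontal NeuN change ran from 5.23 to 5.68 for Meg3, 1.45 to 2.46 for Rian and 2.11 to 4.50 for Mirg, and the cerebellar change from 1.18 to 1.31 for Meg3, 0.59 to 1.08 for Rian and 1.14 to 1.78 for Mirg. A filter of at least 5 FPKM in at least 2 libraries left Rian and Mirg untested. With the replicate number as a block, the log2 changes were the same and no call of a member changed (adjusted p = 5.3e-07 with limma for Meg3 in prefrontal cortex, and 0.0061 for the Mirg difference between the regions); the numbers do not pair the libraries. The median change of all features in prefrontal cortex was -0.01 with the scaling used, -0.19 without scaling and 0.14 with a common sum, and the share of higher calls in cerebellum was 45.2%, or 55.8% with quantile normalization. Of 864 list counts, 64 moved by more than 1.5 times. Few fragments limit the small RNA features and Mirg in prefrontal NeuN-.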
